A study of Arabidopsis thaliana with 9 samples.

Results

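The 10 genes described here form the core of the Arabidopsis thaliana circadian clock: LHY, CCA1, PRR9, PRR7, PRR5, TOC1, GI, ELF3, ELF4 and LUX. They were taken by name, through their locus identifiers, though earlier results of these data were known when they were chosen. They are 10 of the 18861 genes listed in any of the deposited tables. All 10 are listed in every group, so each has a value in every library.

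The study sequenced polyadenylated RNA of 9 libraries in 3 groups of 3 biological replicates. The leaf group was rosette leaves of wild-type Col-0, from plants kept 1 week on Murashige and Skoog medium in continuous light at 23 °C and then 2 weeks on soil at 21 °C in days of 16 h light and 8 h dark. The wild-type callus group was cultured tissue raised from Col-0 cotyledons, and the emf2 callus group was raised in the same way from emf2 mutants (emf2-1 in the file headers), whose background the labels do not name. The EMF2 protein belongs to a Polycomb complex, PRC2, that marks histone H3 at silenced genes. Seeds for both calli were sown on Gamborg B5 medium that held an auxin, 2,4-dichlorophenoxyacetic acid, at 2.2 µM and a cytokinin, kinetin, at 0.46 µM. After 7 days of continuous light at 23 °C the cotyledons were cut and kept in the dark, and callus was analysed at 6 to 8 weeks of age. Leaf and callus thus differ in tissue, hormones, light regime and age together, and these cannot be told apart. The labels give no hour of harvest for any library, so a gene's overall level and the phase at which its tissue was taken cannot be told apart either. In bulk tissue, fewer cells of a type and less RNA per cell cannot be told apart.

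The plant clock is a ring of genes that repress each other in turn through the day. The MYB factors CCA1 and LHY peak around dawn and repress the genes of the evening. The pseudo-response regulators PRR9, PRR7 and PRR5 follow in sequence through the day and, with TOC1 at dusk, repress CCA1 and LHY. GI is an evening protein that stabilises the F-box protein ZTL, and ELF3, ELF4 and LUX form the evening complex, a night-time repressor. In leaves the clock times photosynthesis, growth and flowering, and light at dawn and dusk sets its phase.

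The evening element, AAAATATCT, is the sequence that CCA1 and LHY are known to bind in evening genes, and its occurrences are printed here because 3 of the members that hold it, TOC1, GI and LUX, are set against CCA1 or LHY below. In the 1000 bases upstream of each annotated gene start, searched on both strands, it was found in 5 of the 10 members. Of all 27443 promoters of that length, 7.2% hold it. The stretches are from the RefSeq annotation of assembly TAIR10.1, each printed 5′ to 3′ on the strand that reads AAAATATCT, with the element in capitals.
PRR5, chr5:8359239-8359277, plus strand: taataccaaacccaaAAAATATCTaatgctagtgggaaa
PRR5, chr5:8358815-8358853, plus strand: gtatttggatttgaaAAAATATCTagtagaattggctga
PRR5, chr5:8358710-8358748, plus strand: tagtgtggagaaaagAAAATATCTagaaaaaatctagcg
TOC1, chr5:24674797-24674835, minus strand: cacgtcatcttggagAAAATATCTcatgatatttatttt
GI, chr1:8060927-8060965, plus strand: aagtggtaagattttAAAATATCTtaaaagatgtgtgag
GI, chr1:8060959-8060997, minus strand: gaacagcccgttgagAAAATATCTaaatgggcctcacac
GI, chr1:8061145-8061183, plus strand: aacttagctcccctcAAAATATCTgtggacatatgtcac
ELF4, chr2:16735466-16735504, minus strand: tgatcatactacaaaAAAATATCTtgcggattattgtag
LUX, chr3:17182974-17183012, plus strand: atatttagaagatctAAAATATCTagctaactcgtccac

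PRR5 and GI hold 3 evening elements each, and TOC1, ELF4 and LUX hold 1 each. The element nearest to its gene start is that of LUX, whose farthest base lies 53 bases upstream, and the farthest is the one 809 bases upstream of GI. LHY, CCA1, PRR9, PRR7 and ELF3 have none in this window. The related CCA1 binding site AAAAATCT, whose letters are not part of the evening element, was found upstream of LHY, PRR9 and PRR5 and in 21.1% of all promoters. The G-box CACGTG was found upstream of LHY, CCA1, PRR9, PRR7 and LUX and in 14.8% of all promoters. The LUX binding site was found as GATACG upstream of PRR7, ELF3 and ELF4 (16.9% of promoters) and as GATTCG upstream of LHY, PRR9, PRR7, TOC1, GI and LUX (28.2%). A match is a description of these letters, and no binding was measured here.

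Levels are in RPKM, a read count per kilobase of gene and per unit of library size, and a gene is listed for a group where its mean there exceeds 1 RPKM. Whole reads recovered from the values came to 37.2 to 53.2 M (mega) reads per library. Tissue labels were checked against marker genes. The 5 photosynthesis genes summed to 33590 to 54330 RPKM in leaf and to 4.99 to 49.0 in callus, where emf2 callus listed 3 of them. Of 5 root founder, embryonic and callus genes only ADH1 was listed in leaf (3.63 to 3.84 RPKM), against sums of 979 to 1720 RPKM in callus. Most of each callus sum was ADH1, at 775 to 1484 RPKM. WOX5, WOX11, PLT3 and BBM were listed in both calli and not in leaf, at 10.9 to 100.3 RPKM. EMF2 itself was read at 13.03, 15.5 and 16.3 RPKM in emf2 callus and at 6.78 to 7.55 RPKM in wild-type callus. In leaf it was at 5.495, 6.07 and 29.6 RPKM, with replicate 3 above every emf2 callus library. The labels do not describe the emf2 lesion, so these levels do not check the genotype. The leaf libraries stand apart from each other. Leaf replicate 3 correlated with replicates 1 and 2 at r = 0.928 and 0.926 over the 14476 genes listed in all groups, against 0.974 between those 2. Wild-type callus replicates 2 and 3 also correlated at 0.928, so a value this low is not particular to leaf. The 5 defence genes summed to 3266 RPKM in leaf replicate 3, against 204 and 611 in the other leaf libraries. In leaf replicate 2 the 6 listed heat shock genes summed to 999 RPKM against 20.5 and 38.4. Values without one of these libraries are given below where they change a call or move far.

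**Figure D1:**
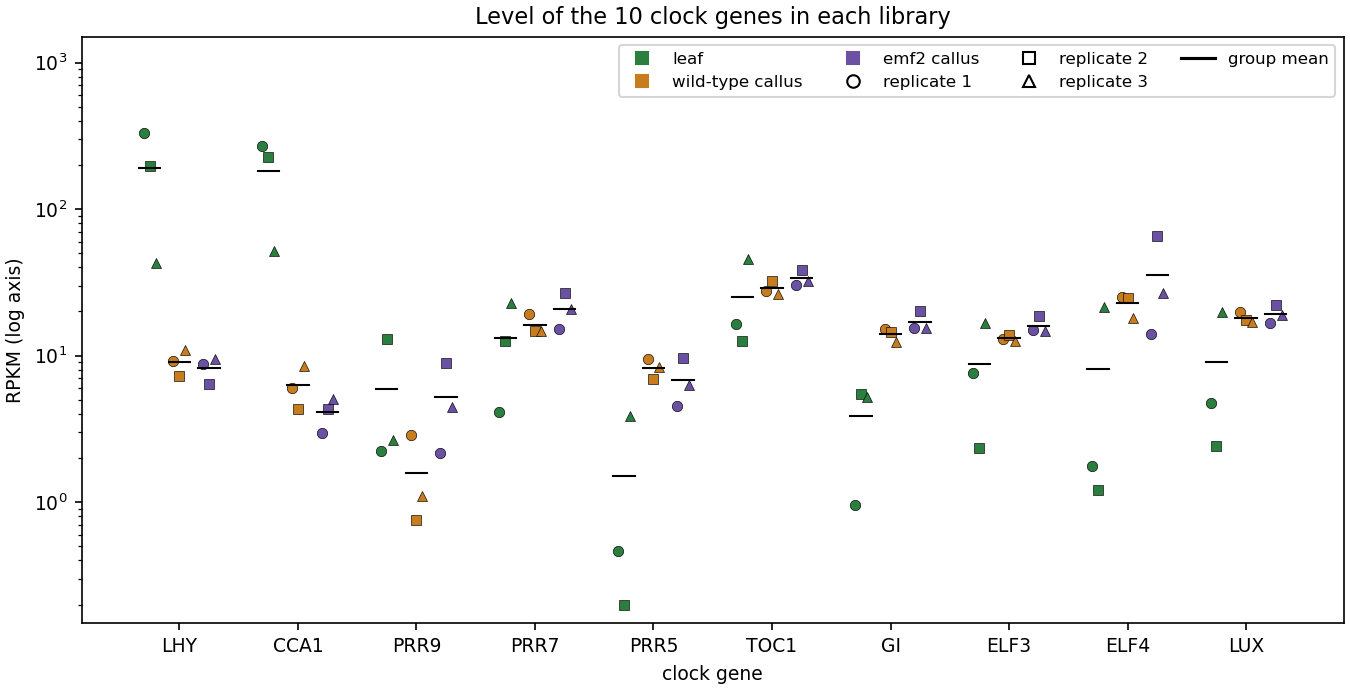
Level of each clock gene in RPKM on a log axis, by group (colour) and replicate (symbol), with bars at group means. LHY and CCA1 lie above every callus library in all 3 leaf libraries, and leaf replicate 3 (green triangle) lies highest in leaf for PRR7, PRR5, TOC1, ELF3, ELF4 and LUX.

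LHY and CCA1, the dawn MYB factors, were the highest members in leaf and among the low members in callus. LHY (AT1G01060, chromosome 1, 33365 to 37871) was at 332, 196 and 42.7 RPKM in leaf, at 9.14, 7.23 and 10.9 in wild-type callus and at 8.72, 6.42 and 9.43 in emf2 callus. CCA1 (AT2G46830, chromosome 2, 19245591 to 19248915) was at 271, 226 and 51.6 RPKM in leaf, at 6.00, 4.35 and 8.45 in wild-type callus and at 2.95, 4.31 and 5.04 in emf2 callus. For both genes every leaf library lay above every callus library, and leaf replicate 3 was the lowest of the leaf libraries.

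In wild-type callus against leaf, LHY fell by 3.83 on the scale of log2(RPKM + 1) (SE 0.64, limma, Benjamini-Hochberg adjusted p = 9.36e-04). CCA1 fell by 4.39 (SE 0.57, adjusted p = 2.38e-04). In emf2 callus against leaf, LHY fell by 3.97 (adjusted p = 7.70e-04) and CCA1 by 4.88 (adjusted p = 1.27e-04), with the same standard errors. Both callus comparisons use the same leaf libraries. Without leaf replicate 3 the log2 differences in wild-type callus were −4.68 for LHY and −5.14 for CCA1. Both genes passed in both callus groups under every alternative processing that was run.

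The pseudo-response regulators did not move as one. PRR5 (AT5G24470, chromosome 5, 8356204 to 8358546), an afternoon repressor of CCA1 and LHY, was at 0.461, 0.200 and 3.88 RPKM in leaf, at 9.42, 6.90 and 8.39 in wild-type callus and at 4.53, 9.55 and 6.33 in emf2 callus. All 6 callus libraries lay above the 3 leaf libraries, of which replicate 3 was the highest. The leaf values rest on 37, 14 and 368 reads. PRR5 rose by 2.17 in wild-type callus (SE 0.49, limma adjusted p = 0.00500) and by 1.88 in emf2 callus (SE 0.49, adjusted p = 0.00984), and it passed under every alternative in which it was tested.

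PRR9 (AT2G46790, chromosome 2, 19232607 to 19235179), the morning member of the family, was at 2.22, 12.9 and 2.66 RPKM in leaf, at 2.88, 0.756 and 1.11 in wild-type callus and at 2.17, 8.88 and 4.49 in emf2 callus. Its groups overlap, with leaf replicate 2 and emf2 callus replicate 2 the highest libraries. It did not pass in wild-type callus (log2 difference −1.17, SE 0.63, adjusted p = 0.134) or in emf2 callus against leaf (0.02, adjusted p = 0.977). Without leaf replicate 2, the library with the highest heat shock sum, these values were −0.50 (adjusted p = 0.424) and 0.70 (adjusted p = 0.269). These values are uncertain, because 908 bases of PRR9 match AT2G46670 at 99.7% identity and reads of the copies may be split. AT2G46670 was at 1.64, 8.55 and 2.29 RPKM in leaf, with the same replicate highest.

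PRR7 (AT5G02810, chromosome 5, 637681 to 642030), which acts between PRR9 and PRR5 in the day, was at 4.13, 12.5 and 22.8 RPKM in leaf, at 19.3, 14.7 and 14.7 in wild-type callus and at 15.1, 26.9 and 20.8 in emf2 callus. The groups overlap and the leaf libraries span a 5.52-fold range, with replicate 3 at the top. The log2 difference from leaf was 0.53 in wild-type callus (adjusted p = 0.367) and 0.86 in emf2 callus (adjusted p = 0.158), and neither passed. Without leaf replicate 1 the first value was −0.07. Without leaf replicate 3 PRR7 passed in emf2 callus, at 1.36 (limma adjusted p = 0.0198), and was at 1.04 in wild-type callus (adjusted p = 0.0541).

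TOC1 (AT5G61380, chromosome 5, 24674963 to 24678550), the dusk regulator that represses CCA1, was at 16.5, 12.7 and 45.9 RPKM in leaf, at 27.6, 32.5 and 26.2 in wild-type callus and at 30.5, 38.5 and 32.1 in emf2 callus. Leaf replicate 3 was above every callus library and the other leaf libraries were below all of them. TOC1 did not pass in wild-type callus (log2 difference 0.41, SE 0.40, adjusted p = 0.398) or in emf2 callus (0.62, adjusted p = 0.200). Without leaf replicate 3 it passed in both, at 0.94 (adjusted p = 0.00175) and 1.16 (adjusted p = 6.05e-04).

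GI (AT1G22770, chromosome 1, 8061751 to 8067790), the evening partner of ZTL, was at 0.948, 5.44 and 5.18 RPKM in leaf, at 15.1, 14.4 and 12.3 in wild-type callus and at 15.3, 20.0 and 15.5 in emf2 callus. Every callus library lay above every leaf library, and leaf replicate 1 was the lowest. GI rose by 1.80 in wild-type callus (SE 0.42, limma adjusted p = 0.00526) and by 2.06 in emf2 callus (SE 0.42, adjusted p = 0.00262). It passed under every alternative that was run, and without leaf replicate 1 the rise in wild-type callus was 1.24.

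The evening complex genes were spread over a wide range in leaf and over a narrow one in wild-type callus. ELF3 (AT2G25930, chromosome 2, 11058944 to 11063324), the scaffold of the complex, was at 7.59, 2.34 and 16.6 RPKM in leaf, at 12.96, 13.9 and 12.6 in wild-type callus and at 14.9, 18.6 and 14.6 in emf2 callus. ELF4 (AT2G40080, chromosome 2, 16734294 to 16734953), a small protein that binds ELF3, was at 1.76, 1.21 and 21.3 RPKM in leaf, at 25.2, 24.9 and 18.1 in wild-type callus and at 13.99, 65.2 and 26.6 in emf2 callus. LUX (AT3G46640, chromosome 3, 17183042 to 17186959), the MYB-like subunit that binds DNA, was at 4.76, 2.43 and 19.9 RPKM in leaf, at 19.8, 17.5 and 16.95 in wild-type callus and at 16.6, 22.0 and 19.1 in emf2 callus. For all of ELF3, ELF4 and LUX, leaf replicates 1 and 2 lay below every callus library and leaf replicate 3 lay among them, so the groups overlap. The leaf values of ELF4 rest on 30, 18 and 428 reads.

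In wild-type callus against leaf, none of the evening complex genes passed. The log2 differences were 0.83 for ELF3 (adjusted p = 0.173), 2.19 for ELF4 (adjusted p = 0.0533) and 1.35 for LUX (adjusted p = 0.0600). In emf2 callus against leaf, ELF4 passed at 2.55 (SE 0.87, adjusted p = 0.0303) and LUX at 1.43 (SE 0.56, adjusted p = 0.0492), while ELF3 was at 1.09 (adjusted p = 0.0837). That ELF4 and LUX pass in emf2 callus and not in wild-type callus is no difference between the calli, which were compared directly below.

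The evening complex calls rest on single libraries. Without leaf replicate 3, all of ELF3, ELF4 and LUX passed in wild-type callus, at 1.40 (adjusted p = 0.00903), 3.25 (adjusted p = 0.00135) and 2.098 (adjusted p = 1.45e-04). ELF3 then passed in emf2 callus as well, at 1.66 (limma adjusted p = 0.00406). ELF4 no longer passed in emf2 callus without leaf replicate 1 (2.1, adjusted p = 0.100), leaf replicate 2 (1.94, adjusted p = 0.105), emf2 callus replicate 2 (1.98, adjusted p = 0.101) or emf2 callus replicate 3 (2.61, adjusted p = 0.0641). LUX no longer passed there without leaf replicate 1 or 2 or any of the emf2 callus libraries, with adjusted p of 0.0832 to 0.151. In the RefSeq annotation AT3G46650 shares 1507 bases with LUX on the opposite strand, and the library kit does not mark strand. Some reads of LUX may therefore belong to AT3G46650, if the shared bases were counted for LUX. The gene lengths behind the RPKM values are not given, so this cannot be told. AT3G46650 was listed in leaf alone, at 4.52, 5.34 and 1.53 RPKM, highest in the leaf library in which LUX was lowest. In the same annotation ELF3 shares 183 bases with the antisense RNA AT2G08135 and 24 bases with AT2G25940.

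**Figure D2:**
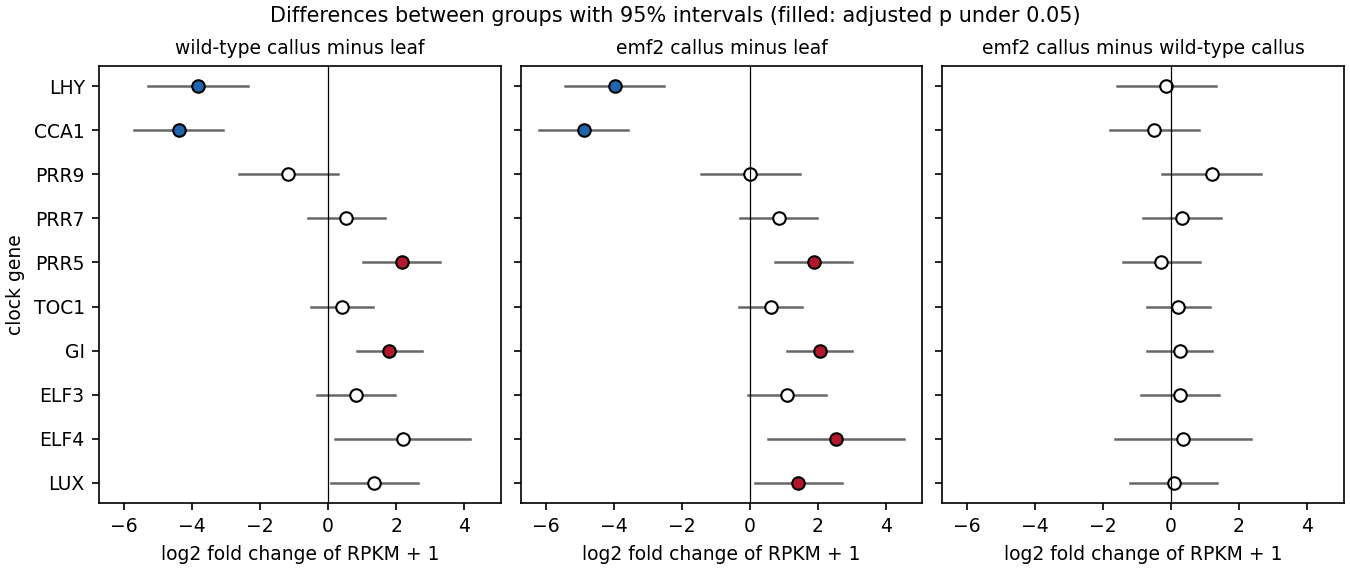
Log2 difference of RPKM + 1 between groups for each clock gene, with 95% intervals, filled where the limma adjusted p is under 0.05. LHY and CCA1 lie at −3.83 and −4.39 in wild-type callus minus leaf, and every interval of emf2 callus minus wild-type callus includes 0.

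Over the 10 members, wild-type callus against leaf gave 2 higher (PRR5 and GI), 2 lower (LHY and CCA1) and 6 that did not pass, and 6 had an unadjusted p under 0.05. Of all 14780 genes tested, 65.4% passed, 33.6% higher and 31.8% lower. The same 4 members were those whose groups did not overlap, against 68.9% of all genes (35.8% higher and 33.1% lower). Emf2 callus against leaf gave 4 higher (PRR5, GI, ELF4 and LUX) and 2 lower, against 65.3% of 14693 genes passing (34.1% higher and 31.2% lower), and 4 members did not overlap, against 72.1% of genes (38.2% higher and 33.9% lower). The members' share of calls was therefore not above the background of these tissues. The median log2 difference of the members was 0.68 for wild-type callus against leaf and 0.97 for emf2 callus, against 0.06 and 0.08 over all genes tested.

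The counts depend on leaf replicate 3 and on the scaling. Without that replicate, 6 members were higher and 2 lower in wild-type callus, and 7 were higher and 2 lower in emf2 callus. Of all 14780 genes tested in wild-type callus, 5273 were then higher and 4924 lower. Of all 14693 tested in emf2 callus, 5274 were higher and 4854 lower. Defence genes were high in that same library (3266 RPKM summed, above), and their part in these results was not tested. The deposited values are not scaled to equal library totals. Under library-total scaling the median of all genes moved to 0.76 for wild-type callus and 0.81 for emf2 callus, and 7 members were higher and 2 lower in both. PRR7, TOC1 and ELF3, which passed in neither callus in the main fit, were among those higher in both under this scaling. Over all genes, the split in wild-type callus then went from 4969 higher and 4703 lower to 8795 and 2675, and in emf2 callus from 5004 and 4591 to 8982 and 2572. LHY and CCA1 were lower, and PRR5 and GI higher, under either scaling.

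Ratios between members within a library do not depend on scaling. The log2 ratio of CCA1 to TOC1, the dawn and dusk repressors of each other, was 4.04, 4.16 and 0.17 in leaf, −2.20, −2.90 and −1.63 in wild-type callus, while emf2 callus gave −3.37, −3.16 and −2.67. CCA1 was above TOC1 in each leaf library, though at nearly equal level in replicate 3, and below TOC1 in all 6 callus libraries. The difference between group means was −5.03 for wild-type callus and −5.85 for emf2 callus against leaf. By exact permutation each had a two-sided p = 0.1, the smallest that 3 against 3 allows, or 0.15 after Benjamini-Hochberg adjustment over 15 ratio tests.

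The log2 ratio of LHY to GI was 8.45, 5.17 and 3.04 in leaf, −0.72, −0.995 and −0.18 in wild-type callus, while emf2 callus gave −0.81, −1.64 and −0.72. LHY exceeded GI in every leaf library and in no callus library. The log2 ratio of CCA1 to LUX was 5.83, 6.54 and 1.37 in leaf, −1.72, −2.004 and −1.005 in wild-type callus, while emf2 callus gave −2.49, −2.35 and −1.92, parted in the same way. For both ratios the exact permutation p of either callus against leaf was 0.1, adjusted 0.15. LHY and CCA1 themselves stayed within a 2.96-fold range of each other in each library, with log2 ratios of −0.28 to 0.29 in leaf, 0.37 to 0.73 in wild-type callus, and from 0.57 to 1.56 in emf2 callus.

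**Figure D3:**
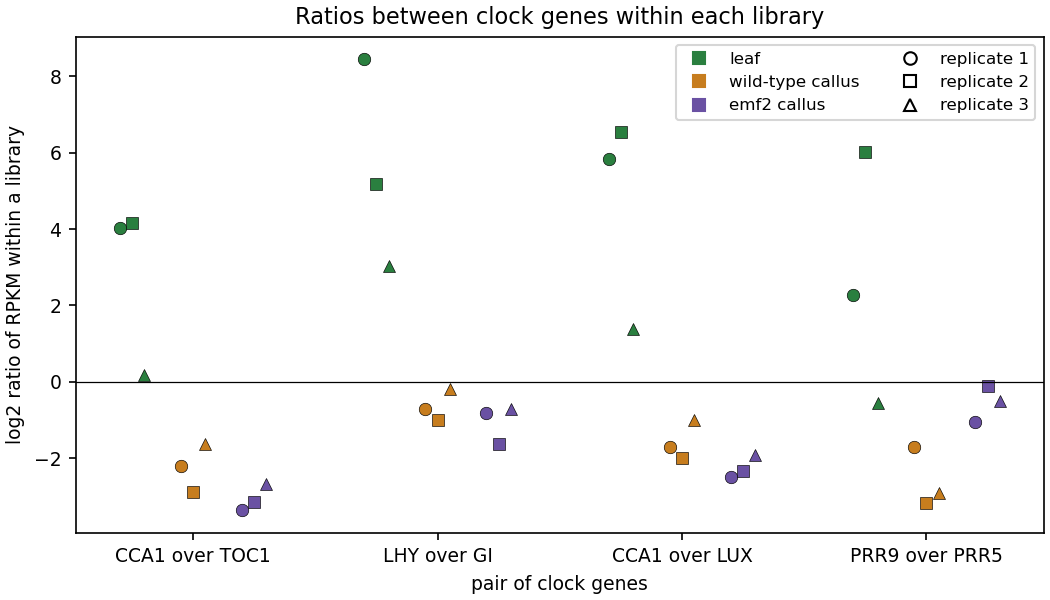
Log2 ratio of RPKM between pairs of clock genes within each library, by group (colour) and replicate (symbol), with a line at 0 where both genes are equal. The ratios of CCA1 to TOC1, LHY to GI and CCA1 to LUX lie above 0 in the 3 leaf libraries and below 0 in the 6 callus libraries.

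The order of levels differed between the tissues. In leaf it ran LHY, CCA1, TOC1, PRR7, LUX, ELF3, ELF4, PRR9, GI and PRR5, by mean RPKM. Neighbours in that order overlapped over the leaf libraries, except that every CCA1 value was above every TOC1 value. In wild-type callus it ran TOC1, ELF4, LUX, PRR7, GI, ELF3, LHY, PRR5, CCA1 and PRR9. There TOC1 was above ELF4, ELF3 above LHY and CCA1 above PRR9 in every library value, and the other neighbours overlapped. In emf2 callus ELF4 (35.3 ± 26.7 RPKM, SD, n = 3) and TOC1 (33.7 ± 4.25) came first, overlapping, and PRR9 and CCA1 last. In both calli LHY, PRR5, CCA1 and PRR9 were the 4 lowest members, and LHY, at 190 ± 145 RPKM, was the highest in leaf.

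The replicates of leaf differed far more at the clock genes than at genes in general. The median ratio of the highest to the lowest library was 6.45 over the 10 members in leaf, against 1.51 over all genes listed there. In wild-type callus it was 1.34 for the members and 1.34 for all genes, and in emf2 callus 1.59 against 1.24. All 10 members spanned at least a 2-fold range in leaf, where 24.4% of listed genes did. In wild-type callus 1 member (PRR9) did, against 18.6% of genes, and in emf2 callus 3 (PRR9, PRR5 and ELF4), against 8.3%. The standard deviation on the log2 scale ranged in leaf from 0.94 for TOC1, above that of 95.2% of listed genes, to 1.84 for ELF4, above that of 99.5%. No test was made of these spreads, which rest on 3 libraries each.

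**Figure D4:**
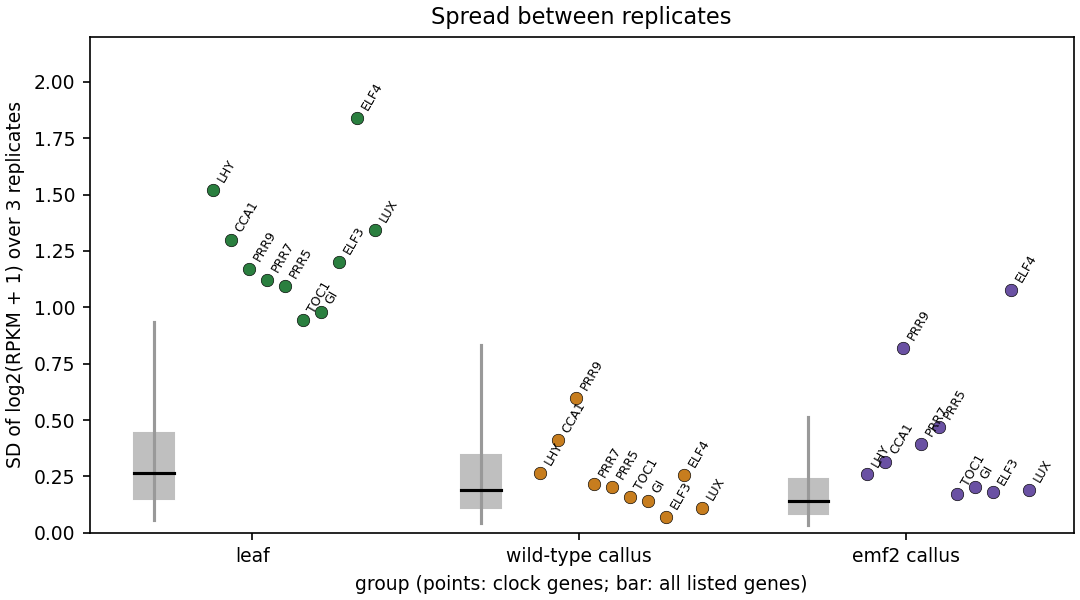
Standard deviation of log2(RPKM + 1) over the 3 replicates of each group for each clock gene (points), beside all listed genes of the group (black line at the median, box between the quartiles, whisker from the 5th to the 95th percentile). In leaf all 10 clock genes lie above the upper end of the whisker, and in wild-type callus none does.

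The leaf libraries ranked differently from gene to gene. Leaf replicate 1 was the highest for LHY and CCA1 and the lowest for PRR9, PRR7 and GI. Leaf replicate 2 was the highest for PRR9 and GI and the lowest for PRR5, TOC1, ELF3, ELF4 and LUX. Leaf replicate 3 was the lowest for LHY and CCA1 and the highest for PRR7, PRR5, TOC1, ELF3, ELF4 and LUX. The labels do not say whether the 3 leaf samples were taken at one hour. Heat shock genes were highest in leaf replicate 2 and defence genes in leaf replicate 3 (sums above), and their part in these orders was not tested.

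In callus, emf2 libraries differed more at these genes than wild-type ones did, by the medians above. Emf2 callus replicate 2 was the highest of its group for 8 members, all but LHY and CCA1, and replicate 1 was the lowest for 8, all but LHY and ELF3. ELF4 reached 65.2 RPKM in emf2 callus replicate 2, against 13.99 and 26.6 in the others and 18.1 to 25.2 in wild-type callus.

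Emf2 and wild-type callus were compared to ask whether clock transcripts differed in callus of the mutant. No member passed: 0 of 10 at an adjusted p under 0.05 by limma and 0 of 10 at an unadjusted p under 0.05, where 0.0989% of 16185 genes passed (0.068% higher and 0.0309% lower). The largest difference was that of PRR9, 5.18 ± 3.41 RPKM in emf2 callus against 1.58 ± 1.14 in wild-type callus (SD, n = 3), a log2 difference of 1.19 with a 95% interval of −0.25 to 2.64 (adjusted p = 0.640). CCA1 was at 4.10 ± 1.06 against 6.27 ± 2.06 RPKM, a log2 difference of −0.49 with an interval of −1.80 to 0.82. The narrowest interval, that of TOC1, ran from −0.70 to 1.14 around 0.22, and the widest, that of ELF4, from −1.64 to 2.36 around 0.36. The intervals of all 10 members include 0, which does not show that the calli are alike.

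GI and ELF3 were higher in each emf2 callus library than in any of wild-type callus, by log2 differences of 0.26 for each, where 18.6% of all genes had groups that did not overlap (9.69% higher and 8.89% lower). The log2 ratio of PRR9 to PRR5 was −1.06, −0.10 and −0.50 in emf2 callus and −1.71, −3.19 and −2.92 in wild-type callus, which do not overlap. The difference of 2.05 had an exact permutation p = 0.1, or 0.15 adjusted over the 15 ratio tests. PRR9 was low in wild-type callus, at 0.756 to 2.88 RPKM, and its values are uncertain because of its copy AT2G46670 (above). How often ratios of other gene pairs do not overlap between the calli was not computed. The members' median log2 difference was 0.24.

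The REVEILLE factors, MYB relatives of CCA1 and LHY, and the LNK proteins, coactivators that work with some of them, were lower in callus than in leaf wherever they passed. Of 12 such genes 11 were tested in wild-type callus against leaf, RVE3 being listed nowhere: 0 rose, 7 fell (RVE1, RVE4, RVE5, RVE8, LNK2, LNK3 and LNK4) and 4 did not pass, with a median of −2.49 against 0.06 for all genes. Over all genes 65.4% passed and 31.8% were lower. RVE8, an activator of evening genes through the evening element, was at 64.8, 56.2 and 20.0 RPKM in leaf, at 2.25, 2.43 and 2.03 in wild-type callus and at 2.27, 3.54 and 2.83 in emf2 callus. LNK2 was at 316, 328 and 116 RPKM in leaf, at 21.0, 10.96 and 15.8 in wild-type callus and at 10.3, 21.0 and 13.7 in emf2 callus. No library of the tissues overlaps for either gene, and leaf replicate 3 was again the lowest in leaf.

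RVE8 fell by 3.73 in wild-type callus (SE 0.39, limma adjusted p = 6.57e-05) and LNK2 by 3.81 (SE 0.44, adjusted p = 1.25e-04). LNK4, at 83.4, 126 and 22.4 RPKM in leaf and 0.833 to 5.71 in wild-type callus, fell by 4.29 (adjusted p = 0.00112), and LNK3 fell by 2.97 (adjusted p = 0.00309). In emf2 callus 0 rose and 6 fell, the same genes without RVE5, with a median of −2.35. Over all genes 65.3% passed there against leaf (34.1% higher and 31.2% lower). Against wild-type callus 0 of 11 passed in emf2 callus. Without leaf replicate 3 the values in wild-type callus were −5.01 for LNK4, −3.63 for LNK3, −4.25 for RVE8 and −4.30 for LNK2. RVE5, whose groups overlap (8.44 to 19.7 RPKM in leaf, 6.89 to 9.46 in wild-type callus), passed at −0.77 (adjusted p = 0.0446). That call was lost with quantile normalization, with library-total scaling, with the compared groups only, and without any 1 library of the comparison other than leaf replicate 3. The calls of the other 6 held under all 14 alternatives. With library-total scaling RVE6 was higher in both calli.

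Other genes with a known part in the clock went both ways. Of 17, 15 were tested in wild-type callus against leaf: 5 rose (PRR3, EFL2, LWD2, XCT and COR28), 3 fell (ZTL, LKP2 and CHE) and 7 did not pass, with a median of 0.63. The 8 calls of 15 stand beside 65.4% over all genes (33.6% higher and 31.8% lower). CHE, a TCP factor that represses CCA1, was at 80.7, 84.1 and 99.5 RPKM in leaf, at 4.07, 4.93 and 3.802 in wild-type callus and at 4.82, 3.77 and 4.54 in emf2 callus. It fell by 4.08 in wild-type callus (SE 0.14, limma adjusted p = 3.89e-07) and by 4.05 in emf2 callus (adjusted p = 3.64e-07), so the repressor and its target CCA1 were both lower in callus than in any leaf library. Unlike CCA1, CHE was highest in leaf replicate 3.

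ZTL, the F-box protein that marks TOC1 and PRR5 for breakdown, was at 28.1, 27.5 and 19.9 RPKM in leaf and at 12.2, 10.9 and 10.2 in wild-type callus, with no overlap. It fell by 1.1 (SE 0.16, adjusted p = 4.24e-04), and under library-total scaling the value was −0.31 and did not pass (adjusted p = 0.0770). COR28, an evening repressor, was at 0.677, 0.106 and 4.54 RPKM in leaf and at 7.30, 10.6 and 7.41 in wild-type callus and rose by 2.1 (adjusted p = 0.00660). EFL2, a relative of ELF4, was at 8.88, 9.04 and 14.3 RPKM in leaf and at 26.8, 37.6 and 21.0 in wild-type callus and rose by 1.32 (adjusted p = 0.00280). Without leaf replicate 3 the rise of COR28 was 2.77 and that of EFL2 1.53. PRR3, whose groups overlap, passed at 1.31 (adjusted p = 0.0307), and its call was lost with the compared groups only and without any 1 library of the comparison other than leaf replicate 3. Under library-total scaling 10 of the 15 were higher and 1 (CHE) lower, and without leaf replicate 3, 11 were higher and 3 lower. Of all 14780 genes, 8795 were higher and 2675 lower under that scaling, and 5273 higher and 4924 lower without that replicate.

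In emf2 callus 7 of the 15 rose (PRR3, EFL2, TIC, LWD1, LWD2, XCT and COR28) and 2 fell (ZTL and CHE), with a median of 0.50 against 0.08 for all genes, beside 65.3% of all genes passing (34.1% higher and 31.2% lower). PRR3, of the same family as TOC1, was at 0.588, 0.221 and 3.90 RPKM in leaf and at 4.90, 6.28 and 4.51 in emf2 callus. The emf2 callus values lie above those of leaf, and PRR3 rose by 1.55 (limma adjusted p = 0.0156). Its call was lost without leaf replicate 1 (adjusted p = 0.0560), leaf replicate 2 (0.0509) or emf2 callus replicate 2 (0.0502). Of 14 alternatives, TIC lost its call in 7, LWD1 and XCT in 4 each, and ZTL under library-total scaling alone. The calls of EFL2, LWD2, COR28 and CHE held under all 14. The number that rose was 3 without leaf replicate 1, 4 without leaf replicate 2, emf2 callus replicate 2 or emf2 callus replicate 3, and 11 under library-total scaling. Of all 14693 genes, 8982 were higher under that scaling, against 5004 in the main fit. EFL3 was listed in both calli and not in leaf, and EFL1 was listed nowhere. Against wild-type callus 0 of 16 passed in emf2 callus.

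**Figure D5:**
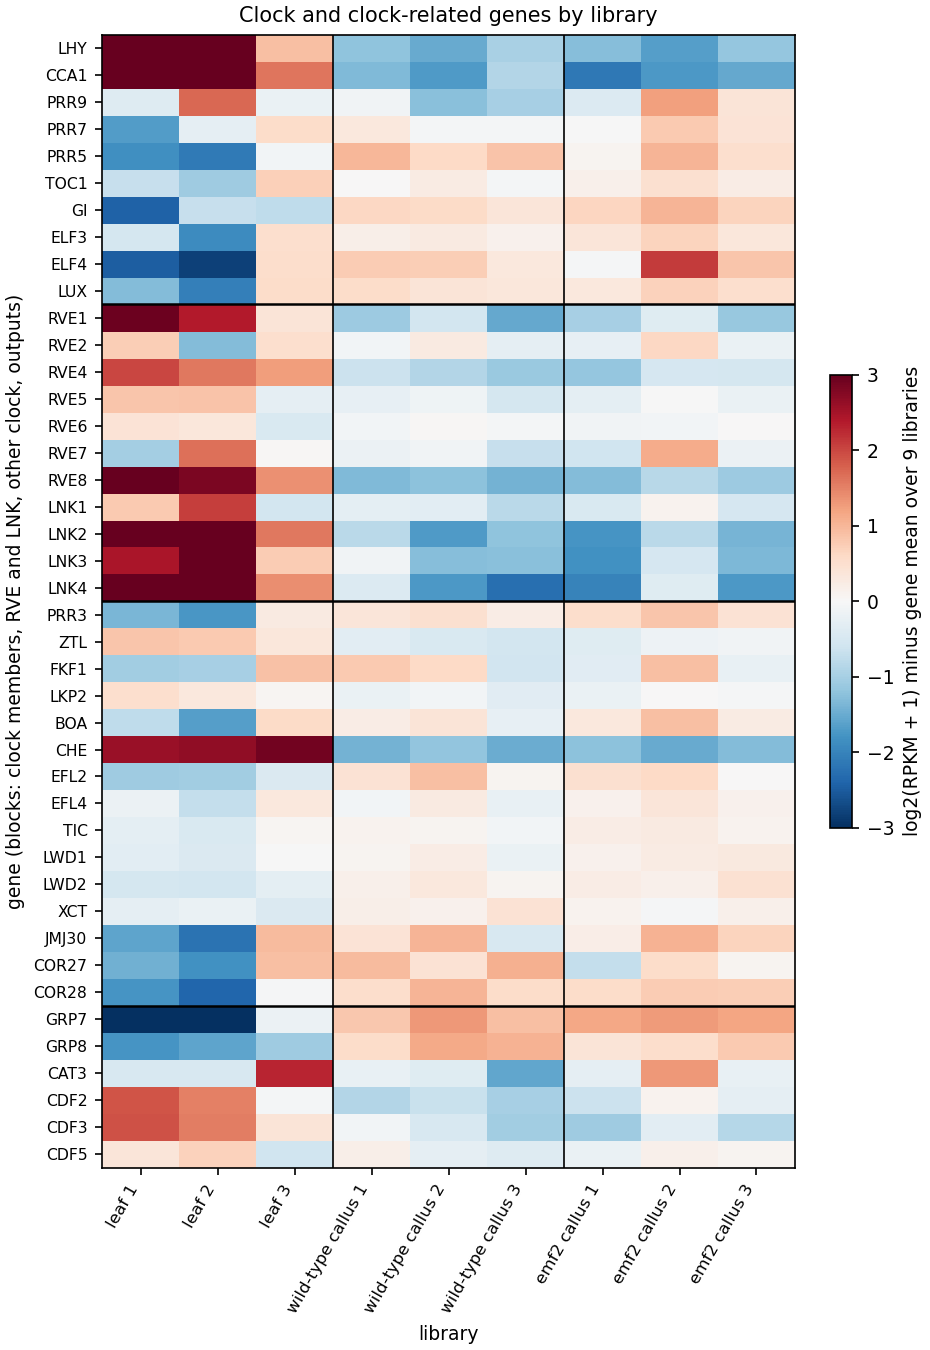
Log2(RPKM + 1) minus the gene's mean over the 9 libraries, for the 10 clock genes and the related genes listed in all groups, with colour limited to −3 to 3. In leaf replicates 1 and 2 LHY, CCA1, RVE8, LNK2 and LNK4 are high (red) and PRR5, ELF4, COR28 and GRP7 low (blue), and leaf replicate 3 is nearer to the callus libraries for most of them.

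Of 11 output genes of the clock, 6 were tested in wild-type callus against leaf: 2 rose, 2 fell and 2 did not pass, with a median of −0.73, beside 65.4% of all genes passing (33.6% higher and 31.8% lower). GRP7, an RNA-binding protein whose transcript peaks in the evening, was at 55.4, 49.2 and 438 RPKM in leaf, at 865, 1209 and 919 in wild-type callus and at 1094, 1188 and 1122 in emf2 callus. Each callus library was above each leaf library, and leaf replicate 3 stood between the other leaf libraries and callus. GRP7 rose by 3.20 in wild-type callus (SE 0.73, limma adjusted p = 0.00509) and by 3.40 in emf2 callus (adjusted p = 0.00372). The rise in wild-type callus was 4.22 without leaf replicate 3 and 2.65 without leaf replicate 2. Its relative GRP8, at 44.2, 50.4 and 73.1 RPKM in leaf and 227 to 340 in wild-type callus, rose by 2.39 (adjusted p = 6.02e-05).

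CDF2 and CDF3, DOF factors that repress the flowering gene CO in the morning, fell in wild-type callus. CDF2 was at 88.0, 66.8 and 21.8 RPKM in leaf and at 12.1, 14.1 and 11.1 in wild-type callus, with no overlap and a log2 difference of −1.95 (adjusted p = 0.00575). CDF3 was at 31.6, 24.2 and 10.3 RPKM in leaf and at 7.19, 5.23 and 3.24 in wild-type callus, again with no overlap, with a difference of −1.81 (adjusted p = 0.00501). Without leaf replicate 3 these differences were −2.54 and −2.25. CDF1, FT, PIF4 and PIF5 were listed in leaf alone, so their means in either callus were at most 1 RPKM. CO was listed in leaf (2.56, 0.450 and 2.70 RPKM) and in emf2 callus (1.05, 1.41 and 0.854), which overlap. Among these PIF5, a growth-promoting bHLH factor, was at 110.5, 166 and 63.4 RPKM in leaf. CAT3, a catalase of the evening, did not pass and stood at 878 RPKM in leaf replicate 3 against 130 in each of the others, and at 443 in emf2 callus replicate 2 against at most 154 in the others. Emf2 callus gave 2 higher (GRP7 and GRP8) and 2 lower (CDF2 and CDF3) of 7 tested against leaf, and 0 of 6 passed against wild-type callus. Of all genes, 65.3% passed in emf2 callus against leaf (34.1% higher and 31.2% lower). CDF2, at 14.4, 24.9 and 18.8 RPKM in emf2 callus, overlaps leaf there and passed at −1.37 (adjusted p = 0.0279). That call was lost under quantile normalization and library-total scaling, with the compared groups only, and without leaf replicate 1 or 2 or emf2 callus replicate 1 or 3. Without leaf replicate 2, CO passed as lower.

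Likeness of pattern was described by Pearson's r on log2(RPKM + 1) over the 9 libraries, against the 14476 genes listed in all groups. These libraries share the contrast of leaf with callus, which many genes follow. LHY was most like MPK15 (r = 0.996) and CCA1 most like AT4G32190 (0.996). PRR5 was most like TLP11 (0.986), TOC1 most like AT4G21450 (0.990), GI most like IBR1 (0.977) and PRR7 most like AT1G03290 (0.947). ELF3 was most like AT2G25730 (0.982), ELF4 most like AT1G16810 (0.976) and LUX most like AT3G61790 (0.992). For PRR9 the nearest was AT2G46670 (0.985), the gene that shares its sequence, and the next was FER1, at 0.853. Among the members themselves LHY and CCA1 had r = 0.988, and over the 6 callus libraries alone 0.595.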

How the data were processed

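The members, the related gene lists and the rule for named genes were chosen with earlier results of these data known. The authors' deposited values are RPKM, per the file headers, with 1 table for each group holding the genes whose mean there exceeds 1 RPKM. Per the submitters' processing notes FastQC, cutadapt, TopHat and the TAIR10 genome were used. Versions and the read counter are not given in the sources used here. No column belongs to a sample outside the labels (0 such columns).

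Differences were fitted on log2(RPKM + 1) in limma 3.58.1 (R 4.3.3): 1 fit, 1 coefficient per group, all libraries of groups listing a gene, variance moderated with a trend, Benjamini-Hochberg adjustment over all genes listed in both groups, two-sided adjusted p under 0.05. This scale understates changes of genes near 1 RPKM. The plan allowed for counts or RPKM, and the tables hold RPKM. The fit was tested on simulated data in which a gene had the same spread in every group. That test does not cover genes whose spread differs between groups, as that of the members did. Ratios were compared by exact permutation (scipy 1.17.1).

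Reads were recovered from ratios between libraries as the smallest whole numbers giving them, for 18857 of 18861 genes (99.98%, relative tolerance 5e-13), and gave 39.97, 37.17 and 41.85 M (mega) reads in leaf, while wild-type callus had 53.17, 50.76 and 41.47 M and emf2 callus 46.99, 52.92 and 40.02 M. They speak to counting error only and served for library-total scaling. Labels call the libraries biological replicates, and no pair holds identical values. Where nothing more is said of their origin, p-values measure the spread between these samples. Those of limma, and the 95% intervals, use a spread pooled over all groups that list a gene, and not only over the groups compared. For the members the median SD on the log2 scale was 1.19 for leaf, wider than for either callus (0.21 wild-type, 0.29 emf2). Same-numbered libraries did not deviate together throughout (r from −0.209 to 0.613), so numbers were not taken as pairs.

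Named are all 10 members, up to 4 genes per related list and contrast by size of change (adjusted p under 0.05, at least 2-fold, no overlap), and the genes most like each member. Genes named beyond that, among them RVE4, RVE5, RVE6, FER1, PIF5, CAT3 and TIC, describe a list's count or were chosen after their values were seen. Coordinates and sequence are from the RefSeq TAIR10.1 assembly, whose nuclear chromosomes are those of TAIR10. Its gene models may differ from those on which the deposited values were counted. Alternatives were pseudocounts of 0.1 and 0.5, a mean of at least 5 RPKM, quantile and library-total scaling, the compared groups only, a replicate block, no variance trend, and each library left out. Applying them to the related lists was added after the data were seen.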

Additional observations from a re-analysis of the deposited data

How the results depend on the processing

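LHY, CCA1, PRR5 and GI kept their direction and passed against leaf in both calli under every alternative in which they were tested. The number of members passing in wild-type callus against leaf was 4, became 9 under library-total scaling, and ranged from 4 to 8 when 1 library was left out. In emf2 callus against leaf it was 6 and ranged from 4 to 9, and against wild-type callus it was 0 throughout. Under library-total scaling 11470 of all 14780 genes passed in wild-type callus against leaf, and 11554 of 14693 in emf2 callus. Without leaf replicate 3 these were 10197 and 10128. With the replicate number as a block, 4 and 5 members passed against leaf, LUX being lost in emf2 callus (adjusted p = 0.0572), and 0 between the calli. Of all genes, 9658 of 14780 and 9583 of 14693 then passed against leaf, and 9 of 16185 between the calli. The 9 libraries share only numbers, so this block has no basis in the labels.

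Signs that changed belong to values that did not pass in the main fit. PRR7 in wild-type callus against leaf ranged from −0.069 without leaf replicate 1 to 1.037 without leaf replicate 3 when a library was left out. Under library-total scaling it was 1.282 and passed (limma adjusted p = 0.0432). PRR9 in emf2 callus against leaf was −0.017 under quantile normalization, −0.392 without emf2 callus replicate 2, −0.359 without leaf replicate 1, −0.269 without leaf replicate 3 and 0.696 without leaf replicate 2. Between the calli, without emf2 callus replicate 2, LHY was 0.014, ELF4 −0.208 and LUX −0.017, and leaving out another library gave values as far as −0.272, 0.863 and 0.175. The cause was not tested. Against leaf, ELF4 and LUX changed sides most: in emf2 callus both were lost when only the compared groups were fitted (adjusted p = 0.0586 and 0.0868) and LUX with a pseudocount of 0.1 (0.0511), while in wild-type callus ELF4 passed with a pseudocount of 0.1 (0.0494), a mean of at least 5 RPKM (0.0465) or quantile normalization (0.0381), the last of which also passed LUX (0.0292).

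The test against the limit of 1 RPKM gave no value, since every member is listed in all groups. With 3 libraries a group, standard errors of the members were 0.40 to 0.87 log2 units, and differences of over 2 standard errors also missed the threshold (ELF4 and LUX in wild-type callus against leaf). Reads were few for PRR5 and ELF4 in leaf replicates 1 and 2 (37 and 14, 30 and 18).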
